A study of Gallus gallus with 9 samples.

Results

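Primordial germ cells (PGCs) of the chicken, taken from embryonic blood and grown in culture with basic fibroblast growth factor (bFGF), had among their brightest array signals those of the germ cell genes DAZL and DDX4. Signals of the DNA methyltransferase DNMT3B, of MYCN and SOX3, and of genes for glycolysis, respiration and ribosomes were also high. Genes of meiosis, blood, vessels and mesenchyme were mostly low or at background, where 50% of all genes were high or moderate. Meiosis genes were above background about as often as all genes (76.5% and 76.4%), and the mesenchyme gene COL3A1 was high in its brightest probe set alone. The account covers the RAW group, cells collected at 0 h while still in bFGF. It comprises 3 of the 9 arrays of the series. All 3 were chosen by their label alone, without use of any measured value, and no other group enters any value given here.

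RAW cells came from blood of the dorsal aorta of Korean Oge (KO) embryos at embryonic day 2.5 (stages 14 to 15). Blood of embryos of mixed sex was pooled and grown without feeder cells in a medium with bovine and chicken serum and 10 ng/ml human bFGF. The study also used leukemia inhibitory factor (LIF) and stem cell factor in combinations with bFGF. It does not state whether the cells on the arrays received them. The remaining 6 arrays hold the same cells after bFGF was withdrawn or given back. The study's methods state that experiments were done 3 times but do not say whether the 3 RAW arrays hold separate cultures, so the spread between them may be in part technical. A culture started from whole blood is also not a sorted population.

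PGCs are the embryonic founders of eggs and sperm. In birds they travel to the future gonad through the bloodstream, which makes them accessible in embryonic blood. They combine RNA-binding proteins of the germ line with transcription factors shared with pluripotent stem cells, and they hold off meiosis until they have settled in the gonad. bFGF (FGF2) binds FGF receptors at the cell surface, and the adaptor proteins and the RAS, RAF, MEK and ERK kinases pass the signal on to transcription factors.

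The study amplified several of these markers by RT-PCR with its own primers, which are shown because they mark the germ cell transcripts that the array values below describe. Each pair is printed in lower case as the source lists it, and the source states neither strand nor position. CVH, the chicken vasa homologue, is DDX4 on the array.
CVH, first primer: gggaagatcagtttggtgga
CVH, second primer: gacaaagaaaggctgcaagg
DAZL, first primer: cgtcaacaacctgccaagga
DAZL, second primer: ttctttgctccccaggaacc
KIT, first primer: gtgggcaagaagtggaagcc
KIT, second primer: gcaaaccaagcatctcatccc

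The 6 PGC markers were above background on all 3 RAW arrays, as were 76.4% of all named genes. Among the brightest 10% of genes were 4 of the markers. Values are linear intensities, and RAW replicates 1, 2 and 3 are given in that order. DAZL, an RNA-binding protein that germ cells need for their development, had intensities of 37733, 39497 and 40943 (mean 39391 ± 1608, SD, n = 3). It stood at rank 15 of 13009 named genes. DDX4, the vasa RNA helicase of the germ granule, read 21592, 22339 and 22552 (22161 ± 504, rank 104). Both were steady, with SDs of 4.08% and 2.28% of the mean.

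KIT, the receptor of stem cell factor, had values of 8395, 8092 and 8413 (8300.0 ± 180.3), and ITGA6, an integrin chain used as a surface marker of chicken PGCs, 6819, 6674 and 6965 (6819.6 ± 145). The chemokine receptor CXCR4, which guides migrating PGCs, read 3044, 3078 and 3482 (3201 ± 244), just below the brightest 10%. LIN28A, which blocks the making of let-7 microRNAs, was the dimmest and least steady marker, at 1741, 1889 and 1257 (1629 ± 331). Its low value on replicate 3 was not seen in its other probe set, which read 1385, 1715 and 1471. All PGC markers of the list were thus above background, but so were 76.4% of all genes. The list was chosen with earlier results of these data known, so the identity of the cells was not tested. The markers NANOG and POUV, for which the study also had primers, were not analysed here.

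**Figure D1:**
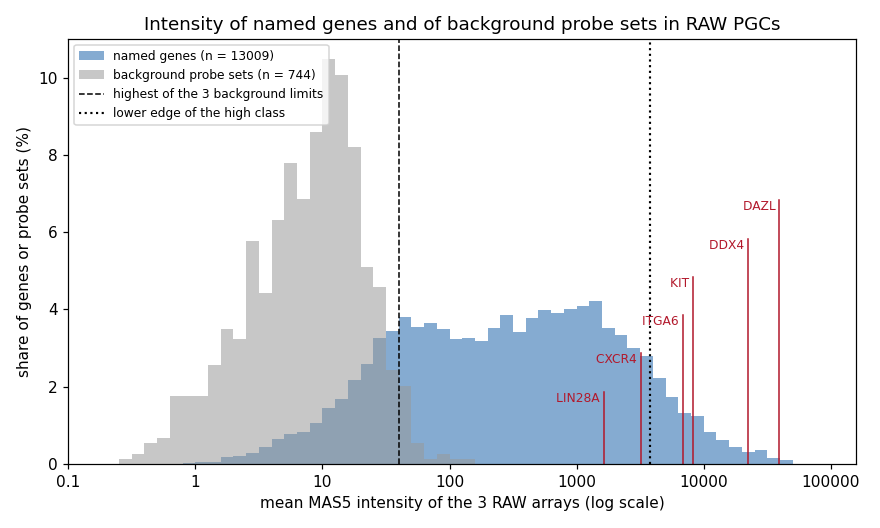
Share of named genes (blue) and of background probe sets (grey) by mean intensity of the 3 RAW arrays, on a log scale; the dashed line is the highest of the 3 background limits, the dotted line the lower edge of the high class. Red lines, whose heights carry no meaning, place the 6 PGC markers, all of them to the right of both the background limit and the bulk of the background probe sets.

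Each array carried 38535 probe sets, of which 27178 had a single gene symbol. Without array controls these were 27168, for 13009 genes. A gene was read from its brightest single-symbol probe set by the mean of the 3 arrays. The background was taken from 744 probe sets that are neither array controls nor named for chicken transcripts, and a gene counts as above background when it exceeds their 95th percentile on each array. That limit lay at 37.0, 40.2 and 36.4 on replicates 1, 2 and 3, against gene medians of 301, 309 and 308. Above it on all 3 arrays were 9940 genes, 76.4% of those named, while 1642 exceeded it on none, 722 on 1 and 705 on 2. By the same measure 11 of the 744 background probe sets were above the limit.

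Genes were placed in 4 classes. The high class is the brightest 10%, 1300 genes or 9.99%, with means from 3748 upward. The moderate class, 5204 genes with means from 306 to 3736, runs from there to the median gene, so that 50% of genes were high or moderate. The low class holds the 3436 genes that were above background but below the median, and the remaining 3069 are called at background. SMIM20 (mean 3748) was the last gene inside the high class and DCUN1D4 (3736) the first outside it, so genes on either side of the edge hardly differ. Intensity depends on how well each probe set binds its target as well as on the amount of RNA. A rank therefore orders probe set signals and not transcript numbers, and class counts describe lists, with no test made. Counts of each list below are to be read against the 76.4% of all genes above background and the 9.99% that were high.

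The 3 arrays resembled each other closely. Pearson correlations of log2 intensity over the 9940 genes above background were 0.993, 0.992 and 0.992 for the 3 pairs, across genes, which are not independent replicates. The coefficient of variation (CV, SD over mean) had a median of 7.36% for genes above background. It was 3.88% in the high, 6.08% in the moderate and 14.4% in the low class, and 52.1% at background. Between the lowest and highest array, 1012 of the 9940 genes differed by over 1.5-fold, and of these 892 were low and 3 high. Low values are thus far less certain than high ones.

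All measured genes for RNA-binding proteins and the piRNA machinery of the germ line were above background by their brightest probe set. Of 20 germline RNA-binding proteins listed 13 were measured, all above background (76.4% of all genes were). There were 4 high, 5 moderate and 4 low, with a median intensity of 1769 against 306 over all genes. ELAVL2, a neuronal and germline RNA-stabilizing protein, read 10274, 10145 and 10166 (10195 ± 69.3), and IGF2BP3, an mRNA-binding protein of early development, 9099, 8460.3 and 8164 (8574 ± 478). With DAZL and DDX4 these make up the high members. The dimmest of the 5 probe sets of ELAVL2 had a mean of 43.4, and the dimmest of the 3 of IGF2BP3 393. DND1, which protects germ cell mRNAs from microRNAs, followed at 3637, 3527 and 3817 (3660.4 ± 146).

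CPEB1, a regulator of poly(A) tails, and PUM2, a translational repressor, were moderate at 1943 ± 11.5 and 1769 ± 57.3. Members of 1 family could differ in class. IGF2BP2 was moderate at 829 ± 15.9 while IGF2BP1 was low at 129.8, 128 and 212, and LIN28B was low at 104, 139 and 125 where LIN28A was moderate. BOLL, a DAZ family member of meiotic male germ cells, read 305 ± 28.8, and DDX25, a helicase of spermatids in mouse, 133 ± 11.2.

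The piRNA pathway silences transposons in the germ line by means of small RNAs bound to PIWI proteins. Of 24 genes on its list 17 were measured, all above background and none low. Of these 2 were high (11.8%, beside 9.99% of all genes) and 15 moderate, with a median of 1343. With the median probe set of each gene in place of the brightest, 16 were above background and 4 high. GTSF1, a partner of PIWI proteins, had the brightest signal of the list at 19064, 19779 and 19713 (19519 ± 395, rank 127). PIWIL1, a PIWI protein, read 3776, 4249 and 3988 (4004 ± 237) in one probe set and 2978, 3030 and 2794 in its other.

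Next came PNLDC1, which trims piRNA precursors, at 3591 ± 67.7, and the chaperone FKBP6 at 3353 ± 56.7. The Tudor proteins, scaffolds of germ granules, ranged from TDRD1 at 2271 ± 71 and TDRD9 at 2084 ± 99.8 down to TDRD6 at 315 ± 32.8, the dimmest of the list. MAEL, the helicase MOV10L1 and the methyltransferase HENMT1, which methylates the ends of piRNAs, had means of 2078, 1193 and 333. The dimmest of the 3 probe sets of MOV10L1 had a mean of 15.3. The highest CV in the list was 10.4%.

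**Figure D2:**
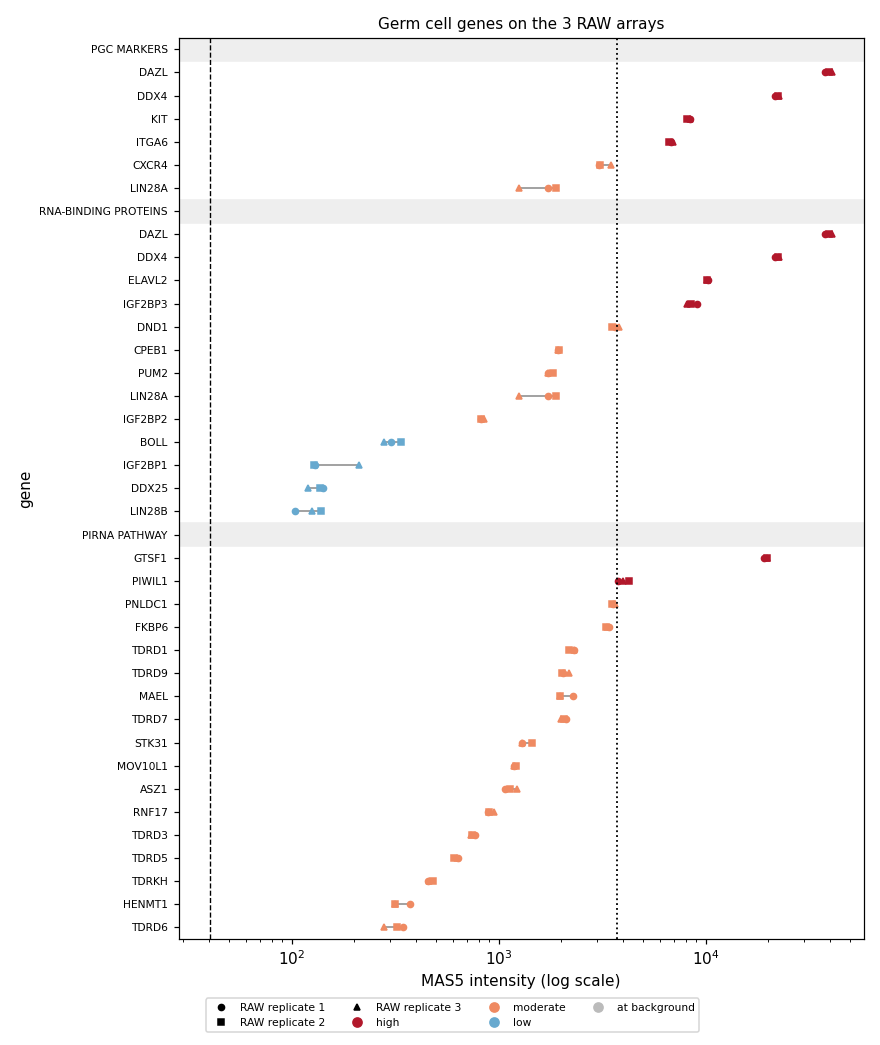
Intensities of PGC markers, germline RNA-binding proteins and piRNA pathway genes, on a log scale, with 1 symbol shape for each of the 3 RAW arrays and colour for the class; the dashed line is the highest background limit and the dotted line the edge of the high class. Every gene lies right of the dashed line on every array, and no piRNA gene is in the low class.

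Regulators shared with pluripotent cells ranged from high to background. Of 18 measured members of the list, 16 (88.9%, beside 76.4% of all genes) were above background, with a median of 427. High members numbered 4 (22.2%, beside 9.99% of all genes), with 6 moderate and 6 low. MYCN, a growth-promoting Myc protein, read 20432, 21004 and 21372 (20936 ± 474). SOX3, a SOXB1 factor, read 12062, 13126 and 14708 (13299 ± 1331), while its close relative SOX2 was low at 72.4, 78.9 and 47.5. In the same way MYC, at 64.6, 68.2 and 72.5, was in the low class although MYCN was high. These pairs sit in different probe sets, so the gap in signal is not a measured ratio of transcripts.

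The zinc finger factors SALL4 and SALL1 had means of 5812 ± 244 and 3647 ± 174, and OTX2, a homeobox factor of the anterior epiblast, 5058 ± 92.3. KLF5 was moderate at 1752 ± 155, KLF2 low at 180.5 ± 33, and KLF4 above background on no array, with 2.38, 2.41 and 9.54. In their dimmest probe sets the means were 178 for SALL1, 1116 for OTX2 and 39.6 for KLF5. TFAP2C, a regulator of germ cell specification in mammals, read 592, 539.7 and 805, and PRDM1, which represses the somatic program in mouse PGCs, 114, 159 and 169. FOXD3, HESX1 and GBX2 were moderate at 511 ± 35.3, 930.4 ± 107 and 344 ± 15.5. TFCP2L1 was barely above background at 55, 48 and 66.2, and ESRRB passed the limit on replicate 1 alone, at 37.7, 24.4 and 6.53. Both belong to the naive pluripotency network of mouse.

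Genes of meiosis, the division that makes eggs and sperm, had no high member. Of 17 measured, 13 were above background, a share of 76.5% beside 76.4% of all genes, with 5 moderate and 8 low and a median of 165. MND1, a partner of the recombinases, was the brightest at 2059, 2014 and 1913 (1995 ± 75.2), followed by its binding partner PSMC3IP at 774 ± 28 and the axis protein HORMAD1 at 619 ± 41.1. The dimmest of the 6 probe sets of MND1 had a mean of 1.69. STRA8, the retinoic acid target that marks entry into meiosis, was low at 126, 197 and 173, as was the axis protein SYCP3 at 227, 246 and 198. SPO11, which makes the meiotic DNA breaks, read 28.2, 27.8 and 6.43, and SYCP1 of the synaptonemal complex 3.13, 6.62 and 9.86, both above background on no array. The recombinase DMC1, at 34.3, 43.4 and 33.9, passed the limit on 1 array and missed it narrowly on the others, and MEIOB was at background as well.

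Telomerase keeps chromosome ends from shortening in dividing germ cells. All 10 measured genes of telomerase and telomere proteins were above background, beside 76.4% of all genes, with a median of 2627. The list had 2 high members (20%, beside 9.99% of all genes) and 7 moderate. The high members were TERF2IP, a shelterin protein, at 4463 ± 194 and GAR1, of the telomerase RNA-binding complex, at 3943 ± 219. Its partners NHP2 and DKC1 were moderate at 3449.9 ± 67.1 and 2591 ± 176. The dimmer of the 2 probe sets of GAR1 had a mean of 449. TERT, the catalytic subunit, was the one low member, at 188, 158 and 203. TERC, the RNA template of the enzyme, is annotated to a probe set that, like the background probe sets, is not named for a chicken transcript. That probe set read 10.4, 9.47 and 18.6, and the level of chicken TERC was not determined here.

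Genes of DNA and histone methylation were above background in 15 of 15 cases, beside 76.4% of all genes, with a median of 1809. Their list had 3 high members (20%, beside 9.99% of all genes) and 9 moderate. DNMT3B, which sets new methylation on DNA, read 25237, 26546 and 26213 (25999 ± 680.4) and stood at rank 76. The dimmer of its 2 probe sets had a mean of 2405, below the edge of the high class. DNMT3A, of the same function, was moderate at 1508 ± 122, while DNMT1, which copies methylation after replication, was low at 283, 258 and 306. Its cofactor UHRF1 was moderate at 751 ± 71.5, and the dimmest of the 4 probe sets of UHRF1 had a mean of 43.9.

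PRMT5, an arginine methyltransferase that works with PRDM1 in mouse PGCs, had 2008 ± 224, and its partner WDR77 11515 ± 526. In their dimmest probe sets the means were 49.0 for PRMT5 and 7.15 for WDR77. The Polycomb proteins EED, EZH2 and SUZ12, which place a repressive mark on histone H3, had means of 5459 ± 194, 3634 ± 103 and 1809 ± 56.7. Their dimmest probe sets had means of 72.7, 33.3 and 134. TET1, which starts the removal of DNA methylation, was among the least steady moderate genes, with 1878, 2228 and 1159. Replicate 3 was the lowest of the arrays in all 3 of its probe sets, the other 2 reading 1217, 1402 and 836, and 652, 656 and 529. TET2 and TET3 were low, at 281 ± 44.6 and 70.9 ± 29.2.

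Surface and migration molecules were above background in 18 of 18 cases, beside 76.4% of all genes, with a median of 2112. Of these 5 were high (27.8%, beside 9.99% of all genes), KIT and ITGA6 among them, and 9 moderate. With the median probe set of each gene, 9 were high. EPCAM, an epithelial adhesion molecule, was the brightest at 17570.3, 16539 and 17664 (17258 ± 624). ITGB1, the integrin chain that pairs with ITGA6, read 9556, 9162 and 8889 (9202 ± 335). Of the cadherins, which join cells to their neighbours, CDH2 was high at 6345 ± 443 and CDH1 moderate at 417 ± 51.9. In the dimmest probe sets of EPCAM and CDH2 the means were 1131 and 912.

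GFRA1, a GDNF receptor that marks spermatogonial stem cells in mouse, read 3383, 3749 and 2815 (3316 ± 471), and the gap junction protein GJA1 2725 ± 104. CXCL12, the ligand of CXCR4, was moderate at 1341 ± 66.7, and the dimmest of its 4 probe sets had a mean of 40.6. KITLG, the ligand of KIT, was low at 89.7, 108 and 101, although KIT was in the high class. FUT9, an enzyme that builds the SSEA-1 sugar found on chicken PGCs, was low at 267 ± 36.

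For FGF signalling, 17 of 25 measured members of the list (68%) were above background, below the 76.4% of all genes, and 1 (4%) was high where 9.99% of all genes were. A further 8 were moderate, and the median was 114 against 306 over all genes. Receptors and adaptors were mostly above background, while 6 of 11 genes of the FGF family were not. The ligand of the culture medium, FGF2, was itself low at 74.1, 134 and 106 (105 ± 29.8). FGF1 and FGF10 were low too, at 76.3 ± 25.8 and 88.7 ± 5.63. FGF3, FGF4, FGF8, FGF9, FGF18 and FGF19 were at background, with means between 12 and 47.8. FGF12 (291 ± 29.2) and FGF13 (2352 ± 47.5) were above it, but both belong to the group of FGF proteins that stay inside the cell. The dimmest of the 4 probe sets of FGF13 had a mean of 6.53.

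Among the receptors, 3 were moderate. FGFR2 read 3058, 3486 and 3346 (3297 ± 218), FGFR3 2297, 2563 and 2975 (2612 ± 342) and FGFR1 1252, 1412 and 1389.9 (1352 ± 86.6). FGFR4 was low, at 208, 142 and 166. Probe sets of 1 receptor differed widely, from 64.8 to 3297 in FGFR2 and from 65.7 to 2612 in FGFR3, so the receptors cannot be put in order from these signals. FGFRL1, a receptor without a kinase, and KLB, the co-receptor of endocrine FGFs, were above background on no array. The adaptor GRB2 was the one high member, at 4929, 4696 and 4849 (4825 ± 119), followed by the phosphatase PTPN11 and the docking protein GAB1 at 1001 ± 45.8 and 796 ± 18.3. The dimmest of the 3 probe sets of GRB2 had a mean of 1155, below the edge of the high class. FRS2, the docking protein that FGF receptors phosphorylate, was low at 44.9, 53.5 and 50.9, and FRS3 low at 206 ± 3.69.

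In the RAS and ERK cascade 9 of 10 measured genes were above background, 1 high and 5 moderate, with a median of 1043. With 10% high, the list was near the 9.99% of all genes. MAP2K1, which codes for MEK1, was high at 4405, 4486 and 4604 (4498 ± 100.2), and MAP2K2, for MEK2, moderate at 3010.3 ± 201. The RAS genes MRAS, HRAS and NRAS had means of 3046 ± 313, 2499.6 ± 191 and 1481 ± 63.9, and the kinase BRAF 606 ± 47.3. In the dimmest probe sets the means were 2092 for MAP2K1, 598 for MAP2K2 and 32.8 for NRAS. Of the RSK kinases downstream of ERK, RPS6KA1 and RPS6KA3 were low at 223 ± 32.7 and 66.6 ± 15.5 and RPS6KA2 was at background.

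ERK signalling switches on its own inhibitors and a set of transcription factors. Of 16 measured genes of this kind, 13 were above background, 81.25% beside 76.4% of all genes. The list had 1 high member (6.25%, beside 9.99% of all genes) and 10 moderate, with a median of 652. DUSP6, a phosphatase of ERK, was the steadiest of the list at 3786, 3799 and 3796 (3793 ± 6.77), just inside the high class. SPRED1 and SPRY2, inhibitors of RAS activation, read 2965 ± 82.8 and 2642 ± 99.8. The dimmest of the 3 probe sets of SPRED1 had a mean of 3.76. IL17RD, which holds ERK in the cytoplasm, read 1178, 1116 and 1160.1 (1152 ± 31.7).

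The ETS factors ETV5, ETV1 and ETV4 were moderate at 1843 ± 224, 589.5 ± 14.3 and 389.8 ± 20.1. The immediate early genes, which respond within minutes of a stimulus, were not above background on every array. FOS read 77.4, 55.7 and 26.1 and EGR1 63.1, 30.9 and 19.7, each highest on replicate 1 and lowest on replicate 3. SPRY4 was low at 42.3, 59.8 and 64.4, and SPRY3 passed the limit on 1 array.

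**Figure D3:**
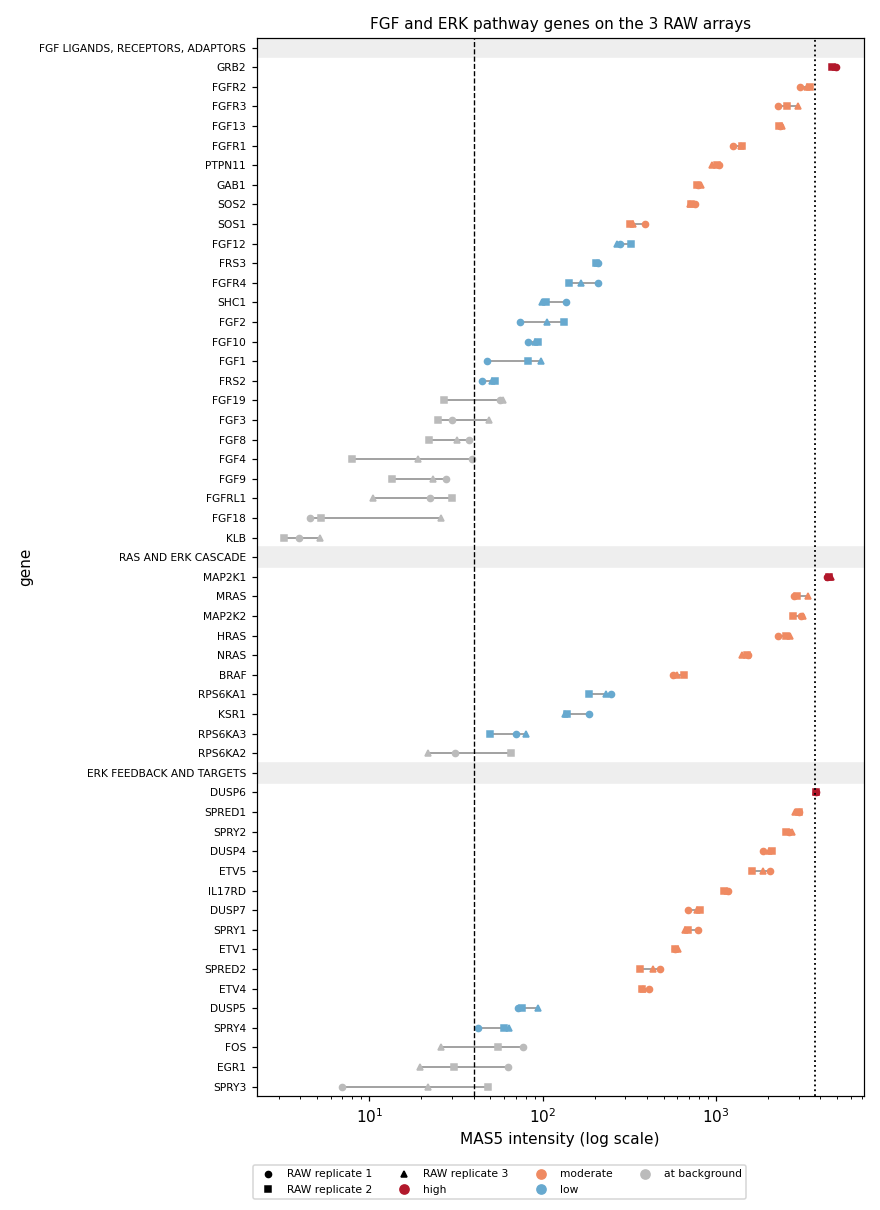
Intensities of FGF pathway, RAS and ERK cascade and ERK feedback genes on the 3 RAW arrays, on a log scale, with symbol shape for the array and colour for the class; dashed and dotted lines are the highest background limit and the edge of the high class. Grey genes, 6 of them FGF ligands, fall below their array's limit on at least 1 array, while the receptors FGFR1, FGFR2 and FGFR3 lie between 1252 and 3486.

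The other receptor pathways are read against the 9.99% of all genes that were high and the 76.4% above background. For PI3K, AKT and insulin or IGF signalling 18 of 20 measured genes were above background, none high and 14 moderate, with a median of 697. RHEB, PDPK1 and IRS4 were the brightest at 3266 ± 144, 3244 ± 189 and 3180.0 ± 170.1. The kinases AKT1 and MTOR had means of 727 ± 31.2 and 1269 ± 43.6, and the receptor IGF1R read 1020.0, 1082 and 769.7. Its ligands were at background, IGF1 with 1.15, 4.45 and 4.28 and IGF2 with 34.5, 75 and 38.7.

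Activin, nodal and BMP signals act through SMAD proteins, and 21 of 27 measured genes of these pathways were above background, with 2 high and 11 moderate and a median of 277. Among the receptors ACVR2A was high at 3902, 4019 and 3915 (3945 ± 63.7), ACVR2B and TGFBR1 were moderate at 1866 ± 218 and 1604 ± 32.5, and ACVR1B, ACVR1C and TGFBR2 were at background. Of the transducers SMAD2 was high at 3815 ± 152 and SMAD5 moderate at 1604 ± 98. The ID genes, which BMP switches on in many cells, read 3573 ± 109.9 for ID2 and 3529 ± 335 for ID1. The ligands were dim, with BMP7, BMP2 and INHBB low at 259 ± 5.27, 169 ± 16.1 and 82.5 ± 29.2, and BMP4, INHBA and NODAL at background.

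The LIF list had 12 of 13 measured genes above background but none high and 4 moderate, with a median of 172. JAK1, the receptor LIFR and STAT3 had means of 2188 ± 95.6, 2051 ± 294 and 1188 ± 106, whereas IL6ST, the gp130 chain that LIFR pairs with, was low at 224, 214 and 187. LIF itself was barely above background at 45.7, 76.8 and 49.2. In the Wnt list 19 of 21 genes were above background (median 310). CTNNB1, for beta-catenin, was the one high member at 13582, 13523 and 12789 (13298 ± 442), FZD8 and FZD1 followed at 1916 ± 131 and 1870.5 ± 107, and AXIN2, a feedback target of the pathway, was low at 208 ± 22.7. Beta-catenin also links cadherins to the cytoskeleton. Of 13 Notch genes 12 were above background (median 167), led by NOTCH1 at 1294 ± 126, RBPJ at 1255 ± 112 and NOTCH2 at 1106 ± 81.1, and the ligand JAG1 was at background.

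**Figure D4:**
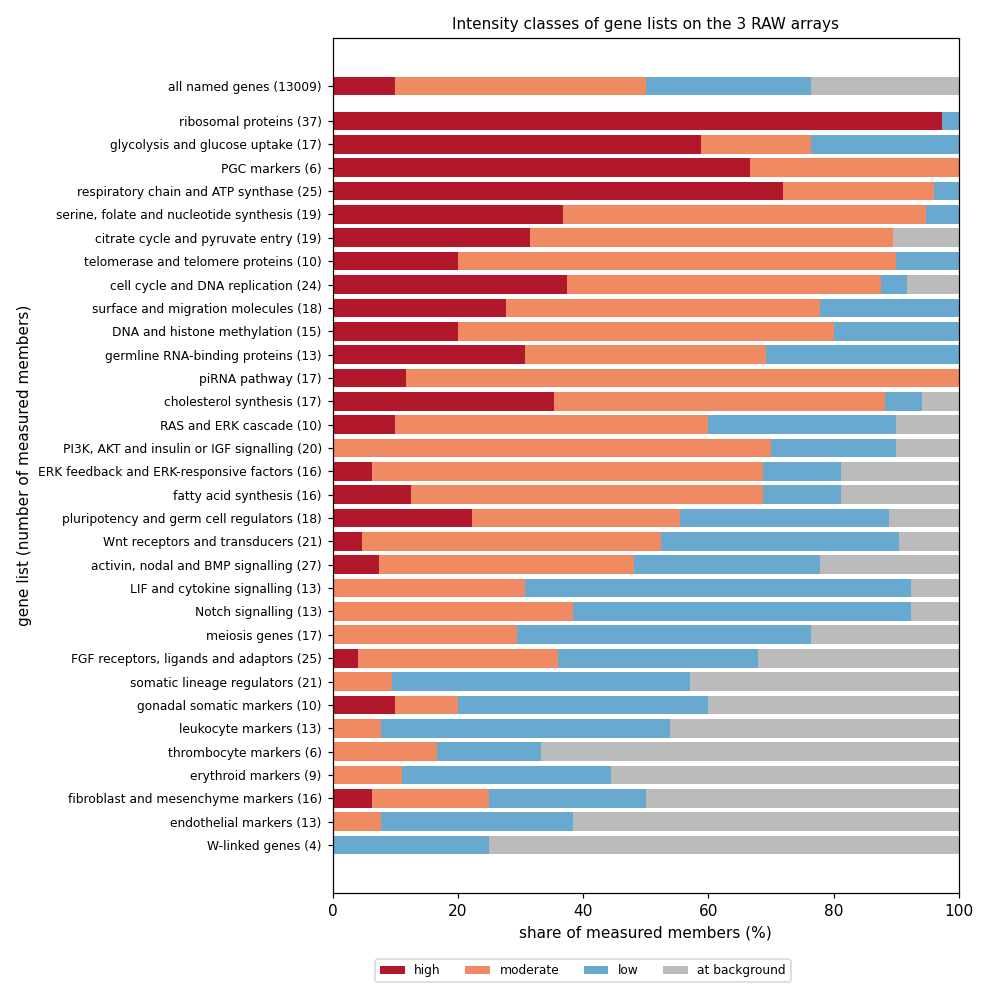
Share of measured members of each of the 32 gene lists in the high, moderate, low and at background classes (axis in percent, member numbers in parentheses), with all 13009 named genes on top. Ribosomal proteins and respiratory chain genes hold the largest share of high members, and the lists of W-linked genes and of other cell types the largest share at background.

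Genes of energy metabolism were often in the high class. Glycolysis and glucose uptake had 17 of 17 measured genes above background and 10 high, where 9.99% of all genes were, with a median of 9087. ENO1, which makes phosphoenolpyruvate, read 40343, 44644 and 44488 (43159 ± 2439, rank 9), and GAPDH, often used as a reference gene, 36159.8, 39561 and 41701 (39141 ± 2795). GPI, which starts from glucose-6-phosphate, had 25093 ± 591, and the lactate dehydrogenase subunits LDHB and LDHA 22403 ± 1306 and 21170.1 ± 1244.

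The entry steps were dimmer. The glucose transporter SLC2A1 was moderate at 2938, 2956 and 3069.6 (2988 ± 71.6), the hexokinase HK1 moderate at 917 ± 33.1, and HK2 low at 192, 109.7 and 131. Of the phosphofructokinase genes PFKP was high at 5696 ± 105, PFKL moderate at 559.6 ± 50.5 and PFKM low at 119 ± 7.14. ALDOC, an aldolase best known from brain, was high at 9087 ± 419.

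The citrate cycle list had 17 of 19 measured genes above background (89.5%, beside 76.4% of all genes) and a median of 2904. Its 6 high members were 31.6% of the list, beside 9.99% of all genes. MDH1, a malate dehydrogenase of the cytosol, read 24859, 25254 and 24344 (24819 ± 457) and its mitochondrial counterpart MDH2 10925 ± 1024. DLAT, a subunit of the pyruvate dehydrogenase complex, was at background with 33.5, 51.4 and 62, and so was pyruvate carboxylase (PC) with 48, 76.9 and 5.47. PDHB, another subunit of the dehydrogenase, had 3514 ± 146. Respiratory chain and ATP synthase genes were above background in 25 of 25 cases with 18 high and a median of 5912, from COX6A1 at 21982 ± 1990.2 and COX4I1 at 20871 ± 1169.6 down to NDUFS3 at 255 ± 24.6.

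Cholesterol synthesis had 16 of 17 measured genes above background (94.1%, beside 76.4% of all genes) and 6 high (35.3%, beside 9.99%), with a median of 1271. FDFT1, which makes squalene, read 13107, 13123 and 14632 (13621 ± 876), and MSMO1 and SQLE, of the later steps, 9864 ± 258 and 5809 ± 322. HMGCS1, of the first steps, was moderate at 1838 ± 260.2, and CYP51A1 was above background on no array. For fatty acids 13 of 16 genes were above background and 2 high (median 629). These shares, 81.25% and 12.5%, were near the 76.4% and 9.99% of all genes. The elongase ELOVL5 was high and steady at 15747, 15609 and 15679.5 (15678 ± 69.2), FASN, the fatty acid synthase, was high at 4285, 4584 and 3314 (4061 ± 664), SCD, a desaturase, was low at 67.1, 103 and 78.3, and the lipogenic factors SREBF1 and THRSP were above background on no array.

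Dividing cells also need nucleotides and proteins. Serine, folate and nucleotide synthesis had 19 of 19 measured genes above background and 7 high (median 3089), led by RRM2, a ribonucleotide reductase subunit, at 9078 ± 595 and TYMS, thymidylate synthase, at 8811 ± 457. PHGDH, the first enzyme of serine synthesis, was moderate at 349 ± 42.1. Of 37 measured ribosomal protein genes 36 were high, with a median of 29601. The exception was RPS13, whose 5 probe sets had means from 17.7 to 83, at 60.6, 117 and 71.5 in the brightest.

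Cell cycle and DNA replication genes were above background in 22 of 24 cases (91.7%, beside 76.4% of all genes), with a median of 2184. Of the list 9 were high (37.5%, beside 9.99% of all genes). PCNA, the sliding clamp of replication, read 14472, 14281 and 14394 (14382 ± 96), and CDK1, the kinase that drives mitosis, 14539.7, 14918 and 13602 (14353 ± 678). Among the D-type cyclins CCND2 was high at 11953, 11970.2 and 11996 (11973 ± 21.5), CCND1 high at 4144 ± 264 and CCND3 moderate at 1638 ± 122. The inhibitors of cyclin-dependent kinases split, with CDKN1B moderate at 2145 ± 134 and CDKN1A (mean 19.1) and CDKN2B (17.8) above background on no array.

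Because the culture began as whole blood, markers of the other cells it could hold were read in the same way. In bulk RNA, fewer cells of a type and less RNA per cell cannot be told apart. Of 19 erythroid markers listed 9 were measured, of which 4 were above background and none high. Their median was 44.5 against 306 over all genes, and their summed intensity 1062 to 1387 per array. The 6 PGC markers summed to 79324 to 83613, with DAZL alone at 37733 to 40943. Probe sets differ in how well they bind, so sums here and below do not measure shares of cells. The embryonic globin HBE, the only globin of the list above the limit on all arrays, read 128, 91.3 and 117. HBAD, HBA1, HBBR and HBZ were at background, but each passed the limit on at least 1 array. CA2, a carbonic anhydrase of red cells and other tissues, made up most of the sum, at 906, 749.5 and 838 (831 ± 78.6).

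For thrombocytes 2 of 6 markers were above background (median 47.3, sum 539 to 615), with TUBB1 at 322 ± 23.4 and ITGB3 at 111 ± 11.2. For leukocytes it was 7 of 13 (median 47.9, sum 1390 to 1495). IRF8, a transcription factor of myeloid cells, was the one moderate member at 653, 661 and 716, the leukocyte surface marker PTPRC was low at 96.7, 94 and 89.9, and CD3E, SPI1, LYZ and CSF3R were above background on no array. Endothelial markers were above it in 5 of 13 cases (median 32.8, sum 1317 to 1376), and SOX17 at 691, 738 and 784 was the brightest. ESAM, PECAM1, SOX18 and VWF, all of them genes of vessel lining, were low at 219 ± 45.5, 99.2 ± 15.8, 82.5 ± 12.2 and 52.2 ± 8.87. The receptors KDR, FLT1, TIE1 and TEK and the genes CDH5, CD34, ERG and EMCN, of the same cells, were at background, with means from 1.82 in EMCN to 39.6 in KDR.

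Markers of mesenchyme were divided. Of 16 measured, 8 were above background (1 high, 3 moderate and 4 low) and 8 were above it on no array, the median was 40.6 and the sum 8261 to 9354. COL3A1 was high at 4592, 4240.1 and 3874 (4235 ± 359) and COL1A2 moderate at 2627, 2191 and 2336 (2385 ± 222), while COL1A1, the partner chain of COL1A2, was low at 244, 310.1 and 248. In COL1A2, 5 of 8 probe sets were above background on all 3 arrays, and in COL3A1, 5 of 6. Apart from the brightest, the probe sets of COL3A1 had means from 2.13 to 883, below the edge of the high class. In their brightest probe sets both genes were highest on replicate 1. The other moderate members were not collagens: fibronectin (FN1) read 956 ± 107 and PRRX1, a transcription factor of mesenchyme, 388 ± 27.1. The receptor PDGFRB and the collagen genes COL5A1 and COL6A1 were low at 234 ± 38.1, 216 ± 15.3 and 62.4 ± 19.2. DCN, LUM, POSTN, PDGFRA, TWIST1, TWIST2, TCF21 and ACTA2, which also mark fibroblasts or their relatives, were the 8 at background, with means between 3.69 and 18.8. The part of other cells in these signals was not tested.

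Among markers of gonadal somatic cells 6 of 10 were above background (median 59.3). DMRT1, a Z-linked factor needed for testis development in birds and also used by germ cells, was high at 8229.5, 8040.3 and 7457 (7909 ± 403) in the brightest of its 7 probe sets, and 5 of the other 6 were not above background on all 3 arrays. AMH, a hormone of Sertoli cells, read 1613, 1571 and 1309 in 1 of 4 probe sets and was not above background on all arrays in the other 3. GATA4, CYP17A1, CYP19A1 and STAR, of the steroid-producing and supporting cells, were at background, and SOX9 and FOXL2 were low at 245 ± 42.8 and 110.4 ± 7.23.

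Regulators of the somatic germ layers were above background in 12 of 21 cases (median 62.6), with none high. SOX17, which is on this list too, and EOMES were moderate, EOMES at 619, 597 and 841. TBXT, the brachyury gene of early mesoderm, was low at 234, 251 and 211, and GATA2, HAND1, HAND2, PAX7, SOX1 and NEUROG1 were at background. Of 4 measured genes of the female-specific W chromosome, 3 were above background on no array. HINTW read 16.6, 24.6 and 2.35, SPIN1L 0.577, 1.44 and 1.29, and LOC374195, the W-linked CHD1 gene, 33.6, 14.1 and 0.735. UBAP2L2 read 148, 176 and 146 in 1 of 5 probe sets, and its other 4 were not above background on all 3 arrays. The starting blood was of mixed sex, and the sex of the cells on the arrays is not given in the sources used here.

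**Figure D5:**
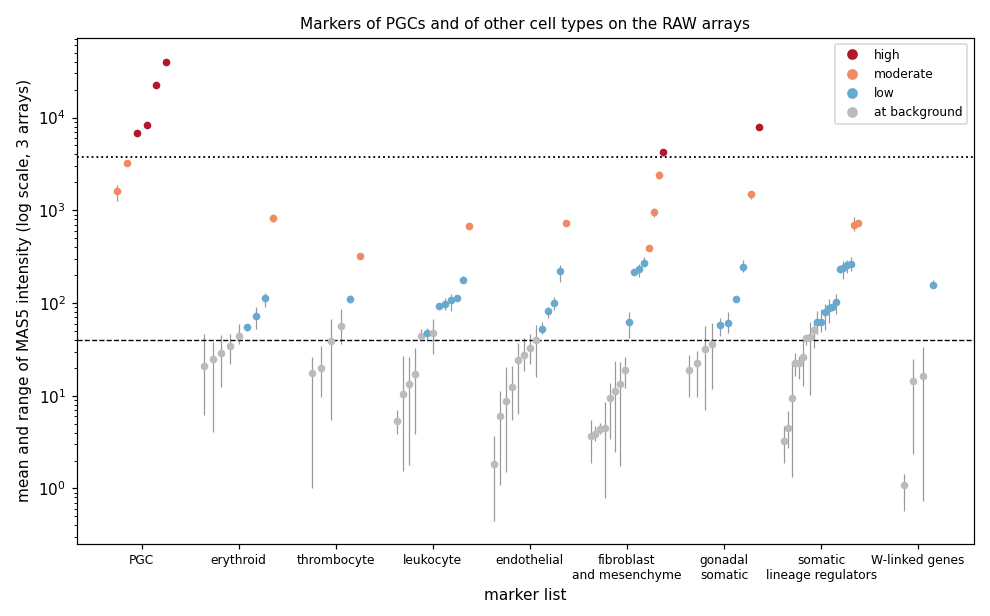
Mean intensity of each marker of PGCs, of other cell types, of somatic lineages and of the W chromosome, on a log scale; points are the mean of the 3 RAW arrays, bars run from the lowest to the highest array, colours give the class, and dashed and dotted lines are the highest background limit and the edge of the high class. All 6 PGC markers lie at 1629 or above, a level that only COL3A1, COL1A2 and DMRT1 pass among the other genes shown.

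Of the 20 brightest genes 11 were ribosomal proteins by symbol, as were 53 of the brightest 100, and RPS20 led with 48888, 51457 and 53272 (51206 ± 2203). The translation factor EEF1A1 followed at 48899 ± 2236. ENO1, DAZL and GAPDH, described above, were among the 20, and so was HSP90AA1, a chaperone, at 41497 ± 1277. ENS-3, of a chicken gene family known from embryonic stem cells, read 42603, 45829.9 and 40909.9 (43114 ± 2499.5, rank 10), and CLDN1, a tight junction protein, 40008, 41359 and 44284 (41883 ± 2186, rank 12). ENS-3 belongs to a family of near-identical copies, so its probe set may read more than 1 gene.

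High genes seldom varied between arrays. The largest CVs in the high class were 25.7% in POLDIP2, with 10433, 6126 and 8976, 23.3% in IMP4, a protein of ribosome assembly, with 4429, 3178 and 5132, and 23.2% in ARIH1, a ubiquitin ligase, with 3315, 4891 and 3365. These 3 had replicate 2 apart from the others, low in POLDIP2 and IMP4 and high in ARIH1. FASN was also among the 10 most variable high genes, lowest on replicate 3. None of the 4 PGC markers in the high class was among these 10. CXCR4 and LIN28A were moderate and so could not be, and the CV of LIN28A was 20.3%.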

How the data were processed

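RNA of cultured chicken PGCs was measured on Affymetrix GeneChip Chicken Genome arrays. The authors deposited 1 linear intensity per probe set and array, computed with MAS5, whose version is not given in the sources used here. Trimmed means (2% left out at each end) were 500.1 on all 3 RAW arrays, so arrays were already scaled and no further normalization was applied. The authors' own comparisons used dChip values, which are not used here, and the 6 arrays of the other 2 groups were read in no step. Samples were grouped by their labels.

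Of 38535 probe sets, 96 array controls were left out, 177 carry several symbols and 11180 none, and genes were named from single-symbol probe sets through the platform annotation. Probe sets have no coordinates here. Without correction for probe affinity, intensities of different probe sets are not on 1 scale of transcript number, and signals near the ceiling of the scanner carry no flag. As signs of RNA quality, the ratio of 3' to 5' probe sets was 1.54 to 1.66 for actin and 0.953 to 0.963 for GAPDH.

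Values are means and SDs (n = 3 arrays, which limits the precision). With 1 group no comparison and no test was made. Classes were computed in Python 3.11.15 with numpy 2.4.6 and pandas 2.3.3, after the same steps were tested on simulated data. Simulated unexpressed genes were drawn from the background probe sets themselves, with 1 probe set per gene. The simulation thus tested neither the rate of false calls nor the choice among several probe sets. The 32 gene lists (651 symbols, 518 genes measured) and the genes named (list members, the 20 brightest, and the 10 high genes with the highest CV) were chosen with earlier results of these data known. Alternatives were other background percentiles and rules, other choices of probe set, quantile normalization, the mean of log2 values, other widths of the high class, and leaving out each array.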

Additional observations from a re-analysis of the deposited data

How the results depend on the processing

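Every alternative described here concerns the RAW arrays alone. The number of genes above background, 9940, lay between 6915 (dimmest probe set of a gene) and 10645 (above on at least 2 arrays) under the other rules on background and probe set, and was 3779 when only the 5675 genes with 1 probe set were read. Of the 518 list genes measured, 433 were above background, and this number ranged from 402 (median probe set) to 449 (at least 2 arrays). High members numbered 122, 85 with the brightest 5% called high and 193 with the brightest 20%, and the count moved by over 1.5 times in 14 and 17 of the 32 lists. With 5%, the lists for telomerase, FGF, RAS and ERK, ERK feedback, activin and mesenchyme had 0 high members, so that GRB2, MAP2K1, DUSP6, TERF2IP, GAR1, ACVR2A, SMAD2 and COL3A1 were no longer high. Leaving out each array in turn gave 10151 to 10206 genes above background, 436 to 441 list members above it, 121 to 122 high members and a median CV of 5.49% to 6.43%, against 7.36% with all 3. Quantile normalization moved no class count of any of the 32 lists. With the median probe set of each gene, the high count moved in 8 of 32 lists, and both the mesenchyme and the gonadal somatic list then had 0 high members. Erythroid markers above background fell to 2 with the 99th percentile as the limit, and thrombocyte markers numbered 4 without replicate 1 or when 2 arrays sufficed. With the median probe set, members above background went from 4 to 2 in the erythroid, 7 to 4 in the leukocyte, 6 to 3 in the gonadal somatic and 1 to 0 in the W-linked list. Of the PGC markers, CXCR4 alone changed class, to high with the brightest 20% or with the median or dimmest probe set of each gene. No paired analysis was possible because only 1 group was described and no test was made.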

Other observations

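Many signals have no gene name in the annotation used. Of 10350 probe sets for chicken transcripts without a symbol, 4416 (42.7%) were above background on all 3 RAW arrays, and 177 were at or over the lower edge of the high class, the brightest with a mean of 41520.1. Among the named genes, 453 had a symbol that is only a locus number, and 8 of these were in the high class.

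Probe sets of 1 gene often disagreed. Of 7334 genes with several probe sets, 6161 were above background by the brightest one, and in 3041 of these at least 1 other probe set was not. Genes with 1 probe set were above background in 66.6% of 5675 cases, against 84.0% of those with several.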
